A study of Homo sapiens with 6 samples.

Results

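CREB and ATF proteins are transcription factors of the bZIP class, in which a basic region contacts DNA and a leucine zipper joins 2 proteins into a dimer. The 10 genes described here, CREB1, CREM, ATF1, CREB5, ATF2, ATF7, ATF5, ATF6, CREB3 and CREB3L2, were taken as named rows of a table of 20263 genes, and all 10 were among the 13444 genes with enough counts to be tested. Messenger RNA was measured by sequencing in HCCLM3, a human hepatocellular carcinoma line, after 24 h with CC-885 (3 libraries) and after 24 h with the solvent DMSO (3 libraries). CC-885 is a small molecule that binds cereblon, the substrate receptor of a ubiquitin ligase, and leads the ligase to degrade proteins such as the translation termination factor GSPT1. The labels name no dose, and no other difference between the groups. Nor do they state that replicate libraries are separate cultures, and p-values then measure only the spread between these samples, which could be technical.

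The family falls into branches with different inputs. CREB1, CREM and ATF1 bind the cAMP response element and, when phosphorylated by protein kinase A or other kinases, recruit the coactivators CREBBP and EP300. The CRTC proteins are further coactivators of this branch. ATF2, ATF7 and CREB5 are close relatives that bind the same element, often as dimers with JUN, and ATF2 and ATF7 are activated by the stress kinases JNK and p38. ATF6, CREB3 and CREB3L2 are made as proteins anchored in the membrane of the endoplasmic reticulum and are released by the site-1 and site-2 proteases of the Golgi, encoded by MBTPS1 and MBTPS2. ATF5 is a relative of ATF4 whose mRNA carries upstream reading frames that favour its translation under stress.

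Total counts per library lay between 30432509 and 39809131. The labelled cell type was checked against its markers. The epithelial keratins KRT8 and KRT18 stood at 593 CPM or more in each library, whereas the liver and liver cancer genes AFP, ALB, GPC3 and TTR had 0 counts in all 6, which allows up to 0.0986 CPM in the shallowest library. Such a limit covers counting error only. It treats counts as independent, although 66.2% of counts from 1 to 19 were even, so it may be too low. APOA1 reached at most 0.163 CPM, KRT19 at most 0.0522 CPM and EPCAM at most 4.97 CPM. The liver origin therefore rests on the label alone, and the liver genes measured here do not bear it out. Of 7 markers of leukocytes, endothelium and fibroblasts, the summed level was 156 to 188 CPM in CC-885 libraries and 159 to 189 CPM in DMSO libraries. PTPRC, the defining leukocyte marker, was at 0 throughout, and nearly all of the sum came from COL1A1 (138 to 170 CPM in CC-885 libraries and 97 to 109 CPM in DMSO libraries) and PDGFRB (13.6 to 14.3 CPM in CC-885 libraries and 58.6 to 77.6 CPM in DMSO libraries). COL1A2, a further fibroblast marker of the list, had no counts except in CC-885 replicate 3 (0.0581 CPM). The part of these markers in the results below was not tested. In counts from a whole culture, fewer cells of a kind and less RNA per cell cannot be told apart.

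Promoter windows of CREM, CREB3L2 and CREB5 are shown because they hold the family's own binding sites or belong to the gene with the largest fold. They come from RefSeq (build GRCh38.p14) and run from 250 bases before to 50 bases after an annotated start site. The first is an internal start site of CREM, chr10:35195652-35195951 on the plus strand, a gene whose short inducible repressors are known to arise from an internal promoter. The second is an upstream start site of CREB3L2, chr7:138002037-138002336 on the minus strand. In both, capitals mark the cAMP response element, spelled TGACGTCA. The third is a start site of CREB5, chr7:28685883-28686182 on the plus strand, where capitals mark a C/EBP-ATF site (TGATGNAA on either strand) followed by an AP-1 site (TGANTCA).
CREM: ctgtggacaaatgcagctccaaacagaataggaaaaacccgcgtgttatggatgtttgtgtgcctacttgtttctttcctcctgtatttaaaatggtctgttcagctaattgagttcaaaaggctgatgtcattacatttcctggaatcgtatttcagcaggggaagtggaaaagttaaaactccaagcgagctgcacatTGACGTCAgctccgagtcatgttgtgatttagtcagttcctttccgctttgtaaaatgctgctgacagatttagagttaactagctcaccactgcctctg
CREB3L2: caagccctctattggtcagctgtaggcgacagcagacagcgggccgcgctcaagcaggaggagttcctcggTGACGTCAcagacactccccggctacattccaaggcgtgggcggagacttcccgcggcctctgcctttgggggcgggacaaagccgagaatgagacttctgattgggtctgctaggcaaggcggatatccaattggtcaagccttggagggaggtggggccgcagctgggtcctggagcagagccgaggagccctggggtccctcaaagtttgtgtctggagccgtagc
CREB5: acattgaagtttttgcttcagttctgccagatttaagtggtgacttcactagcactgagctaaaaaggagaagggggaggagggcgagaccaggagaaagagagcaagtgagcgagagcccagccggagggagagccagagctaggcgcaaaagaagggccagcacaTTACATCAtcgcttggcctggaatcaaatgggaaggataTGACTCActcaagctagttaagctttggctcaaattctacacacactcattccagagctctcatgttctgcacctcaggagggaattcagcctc

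The element of CREM starts 50 bases before that start site, and that of CREB3L2 starts 179 bases before its own. The C/EBP-ATF and AP-1 letters of CREB5 begin 83 and 44 bases before the start. In all, 24 windows matched 9 of the 10 genes, several of them overlapping. The full element, read on both strands, was present in 3 windows of 2 genes, since 2 overlapping CREM windows share 1 copy, and in 1.85% of all 35116 promoter windows of the same length. Its 5-base core TGACG, which every full element contains on both strands, was found in 8 of the 24 windows (33.3%), covering 6 genes. Over all windows the share was 24.6%. Genes with several windows have several chances of a match, so the number of genes is not comparable with that share. CREB3, ATF5, ATF6 and ATF7 carried the core without the full element, and a second upstream window of CREM carried it at 178 and 68 bases before the start. The AP-1 letters occurred in 1 CREB5 and 1 ATF5 window, 8.33% of the 24 and near the 7.71% of all windows. The C/EBP-ATF letters occurred in 1 CREB5 and 1 CREB3L2 window, 8.33% of the 24, and in 3.62% of all windows. The CREB5 window shown was picked because it holds both, and the other CREB5 windows hold none of the 4 motifs. For CREB1 and ATF1 none of the 4 motifs was in these windows. A match of letters is a description and not evidence of binding.

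With CC-885, 8 of the 10 mRNAs were called higher, ATF7 was called lower and CREB3L2 was not called. Over all tested genes 25.8% were called higher and 26.8% lower by the same rule, an adjusted p below 0.05 in edgeR's quasi-likelihood test. In 8 members every CC-885 library lay above every DMSO library (29.9% of all tested genes), and in 1 every CC-885 library lay below (31.2% of all tested genes). The median log2 fold change was 0.82 over the members and -0.04 over all tested genes. The members were chosen by family, with their levels and log2 fold changes in this same contrast already known. Their levels, fold changes and calls are therefore a description of these libraries, and nothing is read from the count. Levels are CPM, counts scaled to the library total and TMM factors. Fold changes carry their standard error (SE), and means their SD over 3 libraries.

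**Figure D1:**
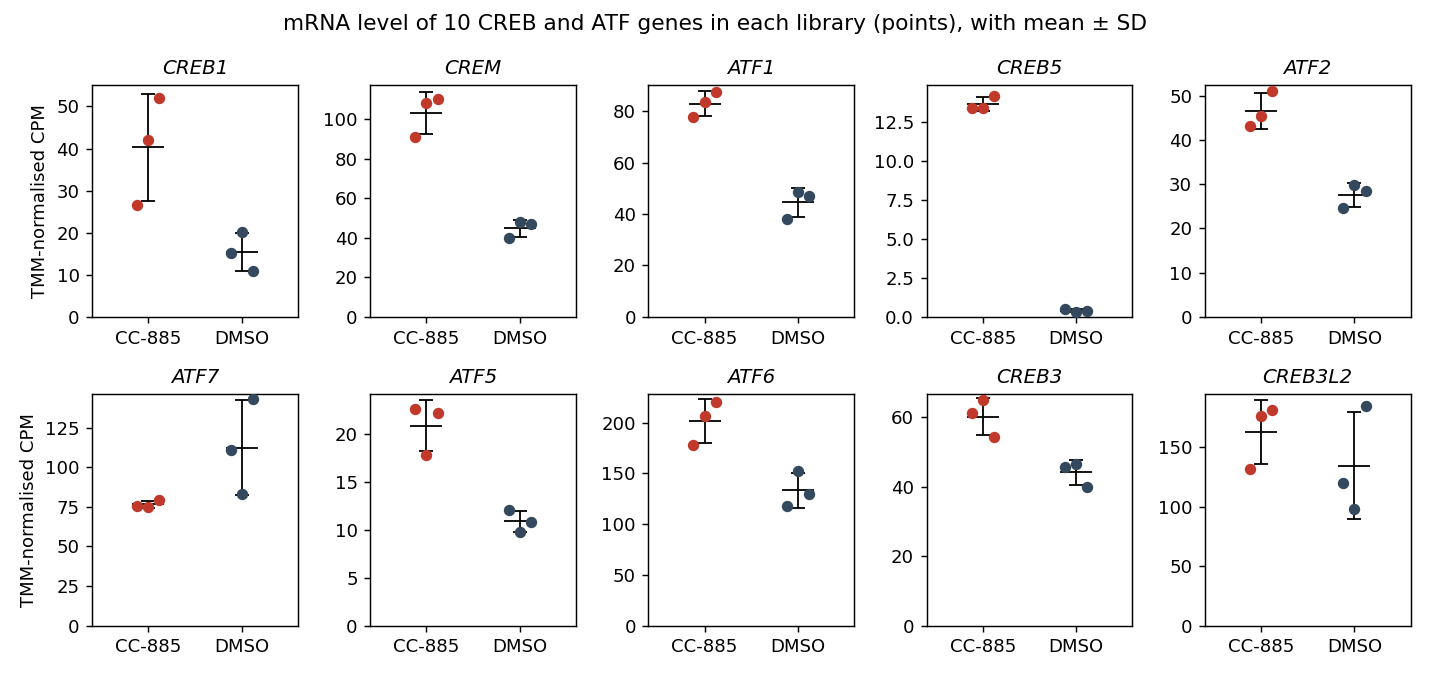
TMM-normalised CPM (linear axis from 0, a separate scale for each gene) of the 10 genes in 3 CC-885 and 3 DMSO libraries; points are libraries, bars the mean and SD. The groups overlap for CREB3L2 and for no other gene, and ATF7 is the gene whose CC-885 points lie below its DMSO points.

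All 3 members of the cAMP-responsive branch rose. CREB1, the founding factor of the family, had 26.7, 42.1 and 52.0 CPM with CC-885, against 15.1, 20.1 and 11 CPM with DMSO. The groups did not overlap, but the libraries within each spread widely, with a coefficient of variation of 31.6% in CC-885 libraries and 29.6% in DMSO libraries. The log2 fold change was 1.39 (SE 0.29), and it ran from 1.17 to 1.64 when single libraries were left out. CREM, which encodes both activators and the short inducible repressors, had 90.7, 108 and 110 CPM with CC-885, against 39.7, 47.8 and 46.8 CPM with DMSO. Its lowest CC-885 library was well above its highest DMSO library, and the log2 fold change was 1.20 (SE 0.13). Counts per gene do not show which of the 34 annotated coding transcripts of CREM, or which of its start sites, gave the reads. ATF1, the closest relative of CREB1 and CREM, stood at 77.7, 83.4 and 87.4 CPM with CC-885, against 38.1, 48.6 and 47.0 CPM with DMSO. Its log2 fold change was 0.89 (SE 0.13), and the groups did not overlap.

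The branch of ATF2 moved in both directions. CREB5 had the largest fold of the family, with 13.4, 13.4 and 14.2 CPM in CC-885 libraries, against 0.496, 0.3 and 0.368 CPM in DMSO libraries. The DMSO values rest on 11 to 19 counts per library and the CC-885 values on 403 to 515. The log2 fold change was 5.12 (SE 0.22), or 34.8-fold, and 10 tested genes had a larger one. Per length of transcript CREB5 was the lowest member in both groups. ATF2 itself had 43.1, 45.4 and 51.1 CPM with CC-885, against 24.6, 29.8 and 28.5 CPM with DMSO, a log2 fold change of 0.75 (SE 0.13) with no overlap.

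ATF7, whose protein is close to ATF2, was called lower. It had 75.6, 74.8 and 79.2 CPM with CC-885, against 111, 83.4 and 143 CPM with DMSO. The CC-885 libraries were nearly alike (coefficient of variation 3.09%), while the DMSO libraries spread over 26.5%, and DMSO replicate 2 came close to the CC-885 values. The log2 fold change was -0.56 (SE 0.18). The call was lost without DMSO replicate 3, where the log2 fold change was -0.35, and without CC-885 replicate 1 (-0.54), replicate 2 (-0.53) or replicate 3 (-0.57). ATF7 exons share 18.2% of their bases with the readthrough gene ATF7-NPFF on the same strand, which had at most 0.552 CPM in CC-885 libraries and 1.09 CPM in DMSO libraries, and 25.6% with an antisense transcript that has no row in the count table. No source used here says whether the counting used strand, and reads of antisense partners then cannot be told apart. Shorter stretches of CREB1 (0.616% of exon bases), CREM (3.6%) and ATF2 (4.28%) also lie opposite an antisense transcript.

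A ratio within a library does not depend on its scaling. Per length of transcript, ATF7 stood at 1.1, 1.03 and 0.97 times ATF2 in CC-885 libraries, against 2.82, 1.75 and 3.14 times ATF2 in DMSO libraries. CREB5 per length was 0.152, 0.144 and 0.136 times ATF2 with CC-885, against 0.00987, 0.00492 and 0.00633 times ATF2 with DMSO. Neither of these ratios overlapped between the groups. Within the cAMP-responsive branch the ratios to CREB1 overlapped: CREM was at 11.7, 8.83 and 7.28 times CREB1 with CC-885, against 9.08, 8.2 and 14.6 times with DMSO. The ratio of CREM to ATF1 did not overlap, at 1.15, 1.27 and 1.23 with CC-885, against 1.02, 0.966 and 0.977 with DMSO.

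**Figure D2:**
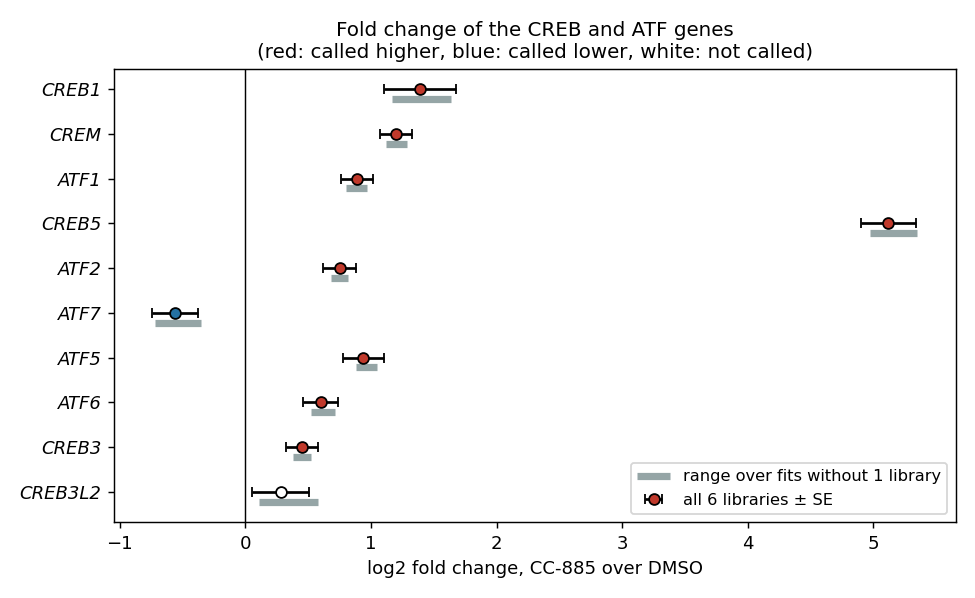
Log2 fold change of CC-885 over DMSO for each gene, ordered by branch (points, ± SE, all 6 libraries), with a grey bar for the range over the 6 fits that each leave out 1 library. CREB5 lies at 5.12, the other called increases between 0.45 and 1.39, and ATF7 at -0.56; the bar of CREB3L2 runs from 0.11 to 0.58.

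ATF5 rose as well. It had 22.6, 17.8 and 22.1 CPM with CC-885, against 12, 9.78 and 10.8 CPM with DMSO, and the groups did not overlap (log2 fold change 0.94, SE 0.16). Of its annotated exon bases 21.2% also belong to NUP62, a nuclear pore gene on the opposite strand. NUP62 averaged 203 ± 7.18 CPM in CC-885 libraries and 87.4 ± 14.7 CPM in DMSO libraries (SD, n = 3 each; log2 fold change 1.22), and its part in the ATF5 counts was not tested.

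The log2 fold changes of the membrane-anchored factors were 0.60 or less, below those of the other members that were called higher. ATF6, the sensor that drives chaperone genes of the endoplasmic reticulum, had 178, 207 and 220 CPM with CC-885, against 118, 152 and 130 CPM with DMSO, with no overlap (log2 fold change 0.60, SE 0.14). CREB3, also known as Luman, had 61.2, 64.9 and 54.3 CPM with CC-885, against 45.7, 46.6 and 40.0 CPM with DMSO. Its groups were apart by less than 10 CPM at their nearest libraries, and the log2 fold change was 0.45 (SE 0.13), a call that was lost without CC-885 replicate 2 (0.39). CREB3 shares 7.3% of its exon bases with GBA2 on the opposite strand, which averaged 71.7 ± 6.95 CPM in CC-885 libraries and 37.5 ± 1.05 CPM in DMSO libraries (SD, n = 3 each; log2 fold change 0.93). A further 3.21% is shared with TLN1, also on the opposite strand. TLN1 averaged 343 ± 27.2 CPM in CC-885 libraries and 346 ± 98.3 CPM in DMSO libraries (log2 fold change -0.01). The part of either gene in the CREB3 counts was not tested.

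CREB3L2, a factor of secretory capacity, was the member whose groups overlapped. It had 132, 176 and 181 CPM with CC-885, against 120, 98.4 and 185 CPM with DMSO. DMSO replicate 3 was the highest of all 6 libraries while the other DMSO libraries were the lowest, and the log2 fold change was 0.28 (SE 0.23). Without DMSO replicate 3 it was 0.58 and passed the threshold. The same DMSO library was also the highest of its group for ATF7 and the lowest for CREB1 and CREB3.

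To compare levels between genes, CPM were divided by transcript length in kb. With CC-885 the order was CREM (46.3 ± 4.73 CPM per kb), ATF1 (38 ± 2.24), CREB3 (32.8 ± 2.92), ATF6 (26.9 ± 2.88), CREB3L2 (22 ± 3.69), ATF7 (11.5 ± 0.354), ATF2 (11.1 ± 0.977), ATF5 (10.1 ± 1.29), CREB1 (5.27 ± 1.66) and CREB5 (1.6 ± 0.0505 CPM per kb; SD, n = 3). Neighbours whose ranges overlapped were ATF6 and CREB3L2, ATF7 and ATF2, and ATF2 and ATF5. In DMSO libraries the 6 highest, CREB3 (24.1 ± 1.95 CPM per kb), ATF1 (20.4 ± 2.59), CREM (20.2 ± 2), CREB3L2 (18.2 ± 6.12), ATF6 (17.8 ± 2.29) and ATF7 (16.8 ± 4.47), each overlapped the next. Below them ATF2 (6.62 ± 0.651), ATF5 (5.26 ± 0.545), CREB1 (2.01 ± 0.595) and CREB5 (0.0455 ± 0.0117 CPM per kb) stood apart from one another. CREM was thus the highest member with CC-885 in each library, whereas CREB3 had the highest mean with DMSO without standing clear of ATF1.

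Summed over the 10 genes, the level was 189, 211 and 216 CPM per kb in CC-885 libraries, against 123, 130 and 142 CPM per kb in DMSO libraries, and the groups did not overlap. The sum is made of members chosen with their fold changes known, so nothing is read from this separation. CREM took 21.6 to 23% of this sum with CC-885 and 14.6 to 16.6% with DMSO. ATF7 took 5.29 to 5.99% with CC-885 and 9.62 to 15.1% with DMSO. CREB5 took 0.742 to 0.832% with CC-885 and 0.0271 to 0.0474% with DMSO, so its large fold added little to the family's total mRNA. The share of ATF6 overlapped between the groups, at 12.6 to 13.6% with CC-885 and 12.2 to 15.6% with DMSO.

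**Figure D3:**
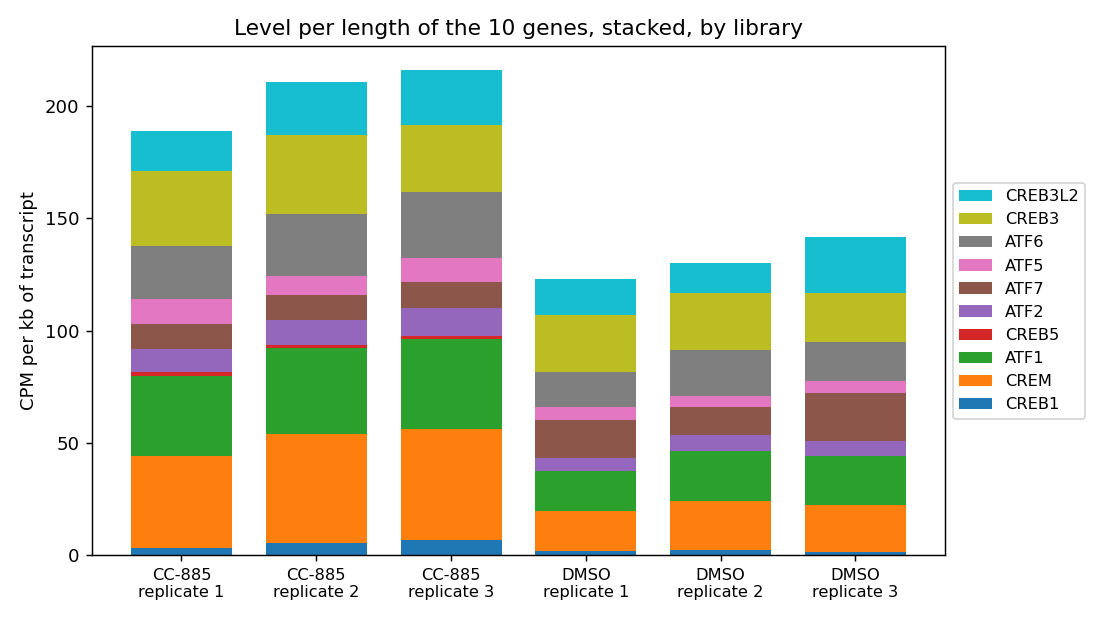
CPM per kb of transcript of the 10 genes, stacked, for each of the 6 libraries (3 CC-885 on the left, 3 DMSO on the right). The stacks reach 189 to 216 with CC-885 and 123 to 142 with DMSO; the CREM segment is wider and the ATF7 segment narrower in CC-885 libraries, and CREB5 is a thin band visible in CC-885 libraries.

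The genes most like CREB5 were sought by the root mean square difference of log2 CPM over the 6 libraries. Each gene was centred on its own mean, among 10789 genes with a mean of at least 5 CPM and counts in every library. The closest were KRT34 (difference 0.23), a hair keratin, INHBA (0.3), the beta A subunit of activins, and NEDD9 (0.4), a focal adhesion scaffold. KRT34 and INHBA, like CREB5, reached that mean only through CC-885 libraries (105 and 11.3 CPM). With DMSO they averaged 3.35 and 0.291 CPM, for INHBA on 6 to 16 counts per library. Nothing is read from this likeness. Those most like CREM were SBDS (0.039), a ribosome maturation factor, ANXA3 (0.042), an annexin, and TAF4B (0.045), a subunit of TFIID. As the treatment dominates these profiles, the measure mostly ranks genes by the nearness of their fold changes.

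Other genes of the pathway were counted from lists that do not contain the members, and their p-values are adjusted over all 13444 tested genes (edgeR quasi-likelihood test). Like the members, the lists were chosen with earlier results of these data known. Their counts and medians are therefore a description, and nothing is read from them. The counts of each list stand beside the 25.8% called higher, the 26.8% called lower and the median log2 fold change of -0.04 over all tested genes. Of 16 other ATF/CREB-type bZIP factors and partners 12 were tested, 8 were higher and CREB3L4 was lower, and the median log2 fold change was 1.01. ATF3, a stress-induced factor that dimerises with JUN, averaged 393 ± 53.4 CPM in CC-885 libraries and 15.9 ± 2.83 CPM in DMSO libraries (log2 fold change 4.62, SE 0.19, adjusted p = 4.44e-08). NFIL3, a repressor of the same class, averaged 70.7 ± 8.33 CPM in CC-885 libraries and 22.9 ± 0.225 CPM in DMSO libraries (1.63, SE 0.13, adjusted p = 3.72e-06). ATF4 was higher too (1.39, adjusted p = 1.62e-05), and per length it stood at 385 CPM per kb with CC-885 and 146 CPM per kb with DMSO, above each of the 10 members. CREB3L4, a membrane-anchored relative of CREB3, averaged 12.3 ± 0.375 CPM in CC-885 libraries and 20.2 ± 3.04 CPM in DMSO libraries (-0.72, adjusted p = 0.0022), and overlaps JTB and SLC39A1 on the opposite strand. JDP2, a repressor at AP-1 and CRE sites, had a log2 fold change of 0.35 (adjusted p = 0.233) and passed only without DMSO replicate 3 (0.57, adjusted p = 0.0225; range over the fits without 1 library 0.0225 to 0.499).

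Of 8 genes for coactivators of CREB and the SIK kinases that restrain them, 6 were higher and 0 lower, and the median log2 fold change was 0.98. CREBBP averaged 410 ± 17.3 CPM in CC-885 libraries and 206 ± 74.3 CPM in DMSO libraries (log2 fold change 0.99, SE 0.23, adjusted p = 0.00534), and its relative EP300 211 ± 18.1 CPM in CC-885 libraries and 101 ± 29 CPM in DMSO libraries (1.05, SE 0.19, adjusted p = 0.00104). The CRTC proteins, which carry the cAMP and calcium signal to CREB, differed among themselves. CRTC3 averaged 730 ± 26.9 CPM in CC-885 libraries and 348 ± 54.4 CPM in DMSO libraries (1.07, adjusted p = 0.000193), and CRTC2 129 ± 3.11 CPM in CC-885 libraries and 65 ± 12.9 CPM in DMSO libraries (0.99, adjusted p = 0.000287). CRTC1 had a log2 fold change of -0.27 (adjusted p = 0.14) and was lower only without DMSO replicate 2 (-0.39, adjusted p = 0.019; range over the fits without 1 library 0.019 to 0.427). SIK1, itself a CREB target that keeps CRTC proteins in the cytoplasm, was higher (0.84, adjusted p = 0.000242).

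Of 32 genes of cAMP production, protein kinase A and cAMP breakdown, 25 were tested. Of these 5 were higher and 10 lower, beside 25.8% and 26.8% of all tested genes, and the median log2 fold change was -0.19. PDE3B, a cAMP phosphodiesterase, averaged 9.35 ± 0.866 CPM in CC-885 libraries and 21.9 ± 2.14 CPM in DMSO libraries (log2 fold change -1.23, adjusted p = 6.25e-05). The adenylyl cyclase gene ADCY7 averaged 87.6 ± 10.2 CPM in CC-885 libraries and 151 ± 13.5 CPM in DMSO libraries (-0.79, adjusted p = 0.000611), with BRD7 on the opposite strand. AKAP12, an anchor of protein kinase A, was higher (10.7 ± 1.08 CPM in CC-885 libraries and 4.46 ± 0.318 CPM in DMSO libraries, 1.26, adjusted p = 8.21e-05), as was the phosphodiesterase PDE10A (0.99, adjusted p = 0.000103). PRKACA, the catalytic subunit of protein kinase A, had a log2 fold change of -0.31 (adjusted p = 0.122), and passed as lower without DMSO replicate 2 (-0.46, adjusted p = 0.0102; range over the fits without 1 library 0.0102 to 0.439). When a gene needed 5 CPM or more in 3 libraries to be tested, fewer of the list were tested, and 5 were higher and 6 lower. The lower genes ADCY5, PKIB, PDE4B and PDE4C averaged 1.57 CPM or less in either group, and this filter left them out. The count of lower genes thus depends on genes near the floor.

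Among 15 tested kinases of CREB and ATF2 proteins other than protein kinase A, 4 were higher and 2 lower, a share of higher calls near the 25.8% of all tested genes, with a median of -0.06. Without CC-885 replicate 3 or without DMSO replicate 1 the list held 1 higher and 1 lower, without CC-885 replicate 2 it held 2 higher and 1 lower, and without CC-885 replicate 1 it held 3 higher and 1 lower. CAMK2D, a calcium/calmodulin kinase, averaged 40.7 ± 3.74 CPM in CC-885 libraries and 23 ± 1.79 CPM in DMSO libraries (log2 fold change 0.82, adjusted p = 0.000409). RPS6KA5, which encodes the CREB kinase MSK1, was higher (0.58, adjusted p = 0.0116), but did not pass when CC-885 replicate 3 (adjusted p = 0.0516) or DMSO replicate 1 (0.0623, the highest over the fits without 1 library) was left out. The 4 p38 genes differed in their calls. MAPK13 averaged 3.85 ± 0.822 CPM in CC-885 libraries and 12.5 ± 0.386 CPM in DMSO libraries (-1.69, adjusted p = 2.78e-05). MAPK12 was lower by less (-0.41, adjusted p = 0.0357) and its call was lost when any library other than DMSO replicate 3 was left out (adjusted p 0.0587 to 0.126). MAPK14, per length the highest p38 gene, averaged 59.5 CPM in CC-885 libraries and 80.8 CPM in DMSO libraries with overlapping groups (-0.44, adjusted p = 0.55), and MAPK11 had a log2 fold change of -0.02 (adjusted p = 0.954). Both fall outside the naming rule and were chosen after their values were seen.

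Of 26 genes known as targets of CREB through its element, many of which also answer to SRF or AP-1, 21 were tested. Of these 13 were higher, 2 lower and 6 not called, and the median log2 fold change was 2.16. DUSP1, a phosphatase of MAP kinases, averaged 889 ± 86 CPM in CC-885 libraries and 51.4 ± 2.88 CPM in DMSO libraries (log2 fold change 4.11, SE 0.16, adjusted p = 4.44e-08). CCN1, a matricellular protein, averaged 2918 ± 101 CPM in CC-885 libraries and 147 ± 25.7 CPM in DMSO libraries (4.31, SE 0.19, adjusted p = 7.37e-08). Against these, RGS2, a regulator of G protein signalling, was lower (32.1 ± 2.11 CPM in CC-885 libraries and 57.5 ± 13 CPM in DMSO libraries, -0.84, adjusted p = 0.00124). PPARGC1A, the coactivator of gluconeogenesis that CREB drives in liver, was lower as well (-0.61, adjusted p = 0.0106), but did not pass when CC-885 replicate 2 was left out (adjusted p = 0.0593, the highest over the fits without 1 library). PCK1, G6PC1, SST, TH and CRH, targets in liver or neural tissue, had too few counts to be tested. Of these, PCK1 had 9 to 13 counts per DMSO library and 0 to 2 per CC-885 library.

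Both proteases that release the membrane-anchored factors were lower. MBTPS1 had 134, 120 and 117 CPM with CC-885, against 178, 156 and 195 CPM with DMSO (log2 fold change -0.51, SE 0.13, adjusted p = 0.00781). MBTPS2 had 23.9, 22 and 24.9 CPM with CC-885, against 38.0, 42.7 and 35.1 CPM with DMSO (-0.71, SE 0.13, adjusted p = 0.00107), and overlaps YY2 on the same strand. Neither gene had overlapping groups, and 31.2% of all tested genes likewise had every CC-885 library below every DMSO library. In their list of 12 genes, which also holds the COPII coat that carries these factors to the Golgi, 3 were higher, 2 lower and the median was 0.11. Neither count is above the share over all tested genes (25.8% higher, 26.8% lower). The higher ones included the cargo adaptors SEC24B (76.6 ± 8.88 CPM in CC-885 libraries and 33.3 ± 1.51 CPM in DMSO libraries, log2 fold change 1.20, adjusted p = 2.73e-05) and SEC24A (98.6 ± 11.2 CPM in CC-885 libraries and 45.0 ± 2.96 CPM in DMSO libraries, 1.13, adjusted p = 4.18e-05), each with a gene on the opposite strand. Of 10 mitochondrial chaperones and proteases tied to ATF5, HSPA9 was higher (0.83, adjusted p = 0.000968), HSPE1 was lower (-0.62, adjusted p = 0.00147) and 8 were not called, with a median of 0.11.

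**Figure D4:**
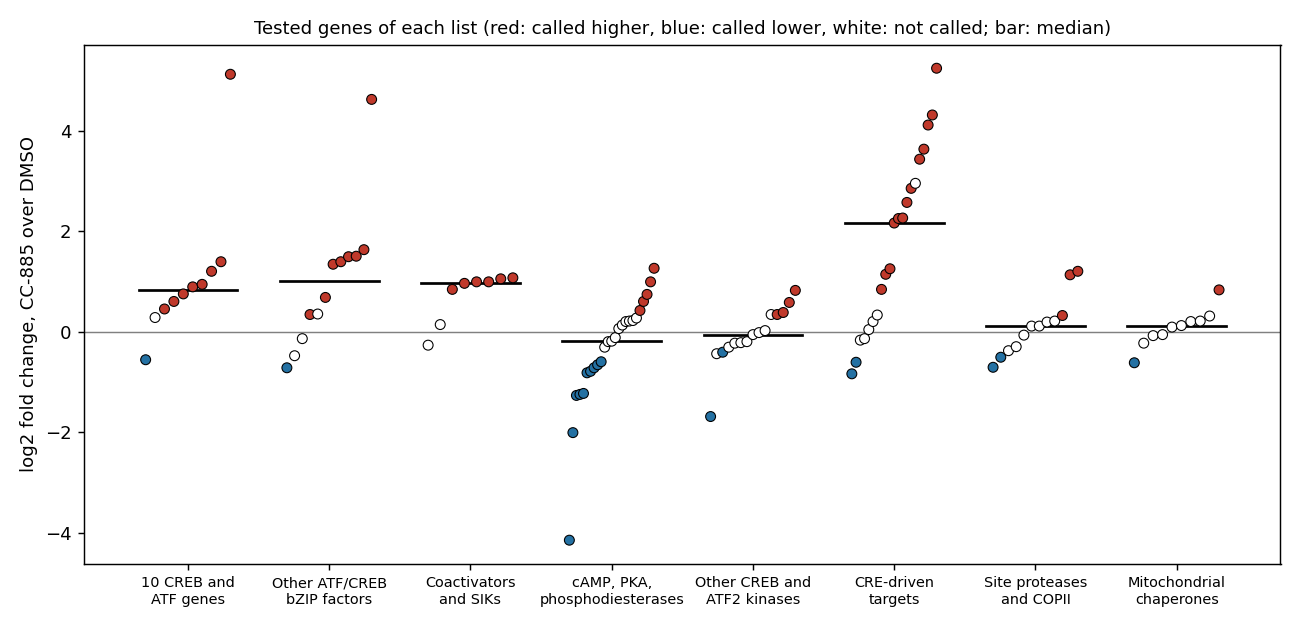
Log2 fold change of CC-885 over DMSO for every tested gene of the 10 CREB and ATF genes and of the 7 lists of pathway genes (points; bar, the median of the list). The medians are 2.16 for the CRE-driven targets, 1.01 and 0.98 for the other bZIP factors and the coactivators, and between -0.19 and 0.11 for the other lists.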

How the data were processed

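RNA-seq libraries of HCCLM3 cells (3 with CC-885, 3 with DMSO) were analysed from the deposited table of raw counts per gene, unnormalised whole numbers per the file headers and values. No source used here names the aligner, counting program, annotation or strand setting. Mouse builds (GRCm38, mm10) stand in the submitters' processing notes, while the 20263 identifiers are human Ensembl genes, so the counts are used without coordinates. Names came from a gene name table (20148) or GENCODE 29 (76), as did lengths (the principal coding transcript) and exon overlaps. Promoter windows are RefSeq's.

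edgeR 4.0.16 (R 4.3.3) was run on all genes passing filterByExpr at a minimum count of 10, with TMM scaling and robust quasi-likelihood F tests, CC-885 against DMSO, no covariate. Adjusted p-values are Benjamini-Hochberg over 13444 genes, and genes below 0.05 are called. The SE is approximate, the size of the log2 fold change divided by the root of F. Named genes are all members, fixed regulators, and in each list up to 2 higher and 2 lower called genes of smallest p. SIK1 and PDE4D stand in 2 lists. The members and lists were chosen with earlier results of these data known. Alternatives were DESeq2 1.42.0 size factors and Wald test, library size only, other filters, the replicate number as a block, leaving out each library and, added after the data were seen, halved counts, since 66.2% of counts from 1 to 19 were even.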

Additional observations from a re-analysis of the deposited data

How the results depend on the processing

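No result changed direction under any alternative run. The 9 calls of members held under each alternative that used all 6 libraries (DESeq2 size factors, library size only, the DESeq2 Wald test, both other filters, the replicate block and halved counts). Leaving out 1 library gave log2 fold changes of -0.72 to -0.35 for ATF7, 0.38 to 0.52 for CREB3 and 0.11 to 0.58 for CREB3L2, whose calls changed as described, with 7 to 9 members called higher and 0 to 1 lower. Over the same fits genes called ranged from 2897 to 3650 higher and 2908 to 3720 lower. Among lists the counts that left 1 library out ran from 1 to 2 lower bZIP factors, 1 to 4 higher and 1 to 3 lower kinases, 2 to 4 lower protease and coat genes, 0 to 1 lower coactivators and 1 to 2 higher mitochondrial genes. With library size only, 2 bZIP factors and 4 protease and coat genes were lower and 2 kinases higher. With a CPM of at least 5 in 3 libraries, 2 bZIP factors and 6 cAMP genes were lower and 2 kinases higher, with fewer genes tested. The Wald test called 2 bZIP factors lower. The cause of the other differences was not tested. The order by level per length was the same with the longest transcript, a check that could hardly have changed it. For every member except CREM (2220 against 2306 bases) the principal transcript is already the longest. Shorter transcripts were not tried.

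Replicate numbers are shared between the groups, but the labels do not say that they pair cultures. Deviations of same-numbered libraries correlated at 0.164, 0.0425 and 0.104, and 5 of 6 libraries correlated best with their own number, a hint from the data only. With the replicate number as a block, 3597 genes were higher and 3676 lower, against 3471 and 3598 without it, and 2 bZIP factors were lower. With 11 to 19 counts per DMSO library, the fold of CREB5 is limited by depth on the DMSO side.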
